A study of Mus musculus with 8 samples.

Results

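The subject is a set of 36 transcripts typical of liver, read in whole mouse testis. The members are 36 listed genes of the 38163 in the deposited table, and they had been picked because their levels were high in both libraries labelled Alkbh5-null at postnatal day 18 (P18). Their values there are therefore given as a description, with no test. All 36 were found, and all 36 passed a filter of at least 1 FPKM (fragment counts scaled by transcript length and library depth) in at least 2 libraries, which 16702 genes passed. Of the 36, 27 passed only through the KO-labelled P18 libraries.

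RNA-seq was done on whole testis of Alkbh5-null (KO) and wild-type (WT) male mice at P18, and of KO and WT males at postnatal day 12 (P12). Spermatocytes are mostly in pachytene and diplotene at P18 and in leptotene and zygotene at P12, per the series' design text. Each of the 4 groups has 2 libraries, with 58417668 to 71537841 counts each. The labels do not say whether they come from separate animals, so p-values measure only the spread between these libraries. The null allele and the strain are not described in the labels. In what follows, a pair of values is replicate 1 and then replicate 2 of a group.

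Alkbh5, which encodes an RNA demethylase of N6-methyladenosine, was at 17.9 and 0.155 FPKM in the KO-labelled P18 libraries, against 0.00985 and 9.07 FPKM in the WT-labelled ones. At P12 it was at 0.0564 and 0.0218 FPKM in KO testes, against 10.2 and 17.8 FPKM in WT testes. The libraries labelled KO P18 replicate 1 and WT P18 replicate 1 thus went against their labels in this transcript, and P18 groups are named below by label only. Germ cell and Sertoli cell markers also split the P18 libraries by pairs that cross the labels. The summed level of 6 germ cell markers was 1415 and 551 FPKM in the KO-labelled P18 libraries, 492 and 1245 FPKM in the WT-labelled P18 libraries, and 328 to 562 FPKM at P12. The summed level of 8 Sertoli cell markers was 769 and 1907 FPKM in the KO-labelled P18 libraries, 2065 and 1063 FPKM in the WT-labelled P18 libraries, and 1613 to 2181 FPKM at P12. In bulk tissue, fewer cells of a type and less RNA per cell cannot be told apart.

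Hepatocytes, the main cell type of the liver, secrete most proteins of blood plasma: albumin and other carriers, the apolipoproteins of lipoprotein particles, clotting factors and protease inhibitors. They also hold the enzymes of the urea cycle, amino acid breakdown and drug metabolism. Many of these genes are controlled by the factors HNF1, HNF4 and C/EBP, which bind near their start sites. A few of the proteins are also made in the testis. Transferrin, for example, is secreted by Sertoli cells and carries iron to germ cells.

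Promoters of some members are shown first because these have a site in common. The letters GTTAAT, which are one side of the HNF1 recognition site, were searched for on both strands of the 250 bases before each RefSeq start (build GRCm38.p6). They were found in 10 of the 29 members with an entry (34.5%), against 2113 of 32851 promoters of the same length (6.43%). Here and below the members are counted by gene, over 31 promoters, and the background by promoter. The 10 were Alb, Gc, Fabp1, Fga, Fgb and the 5 alpha-1-antitrypsin copies Serpina1a to Serpina1e, whose promoters are themselves near copies. In Alb and the Serpina1 copies the letters lay close to the start, and windows of 66 bases around them are printed 5′ to 3′ on the gene's strand, with GTTAAT in capitals. The windows lie at chr5:90460788-90460853 on the plus strand for Alb, and on the minus strand at chr12:103863625-103863690 for Serpina1a, chr12:103738200-103738265 for Serpina1b, chr12:103904962-103905027 for Serpina1c, chr12:103773634-103773699 for Serpina1d and chr12:103956960-103957025 for Serpina1e.
Alb: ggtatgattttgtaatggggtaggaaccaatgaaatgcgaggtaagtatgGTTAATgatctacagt
Serpina1a: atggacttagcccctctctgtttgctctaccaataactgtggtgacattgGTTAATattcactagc
Serpina1b: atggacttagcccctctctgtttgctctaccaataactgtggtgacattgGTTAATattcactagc
Serpina1c: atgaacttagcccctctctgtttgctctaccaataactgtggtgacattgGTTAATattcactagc
Serpina1d: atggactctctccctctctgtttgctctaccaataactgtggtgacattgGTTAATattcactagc
Serpina1e: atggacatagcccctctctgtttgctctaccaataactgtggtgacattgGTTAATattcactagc

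The Serpina1b window had the same letters as that of Serpina1a, those of Serpina1c and Serpina1e differed from it at 1 base each, and that of Serpina1d at 4 bases. The full HNF1 palindrome, with both sides of the site, was in none of the 29 members' windows and in 3 of all 32851 promoters. The C/EBP letters TTGCNNAA were in 12 of 29 members' windows (41.4%), against 9.56% of all promoters. The TATA letters TATAAA were in 6 of 29 (20.7%), against 12.4%. Such a match is a description of the letters and not evidence of binding.

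In the KO-labelled P18 libraries, each of the 6 functional groups of members showed, from plasma carriers to intracellular enzymes. For 35 of 36 members both KO-labelled P18 values lay above all other 6 libraries, while 1.52% of the 16702 genes tested did so. Since the members were picked on this contrast, nothing is read from that difference. For 31 members the lower of the KO-labelled P18 values was at least 2 times the highest of the other 6, and for 28 at least 5 times. The exception was Ass1, described below. The members took 0.105% and 0.115% of all counts in the KO-labelled P18 libraries, against 0.0182% and 0.00923% in the WT-labelled P18 libraries and 0.00801% to 0.0107% at P12.

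**Figure D1:**
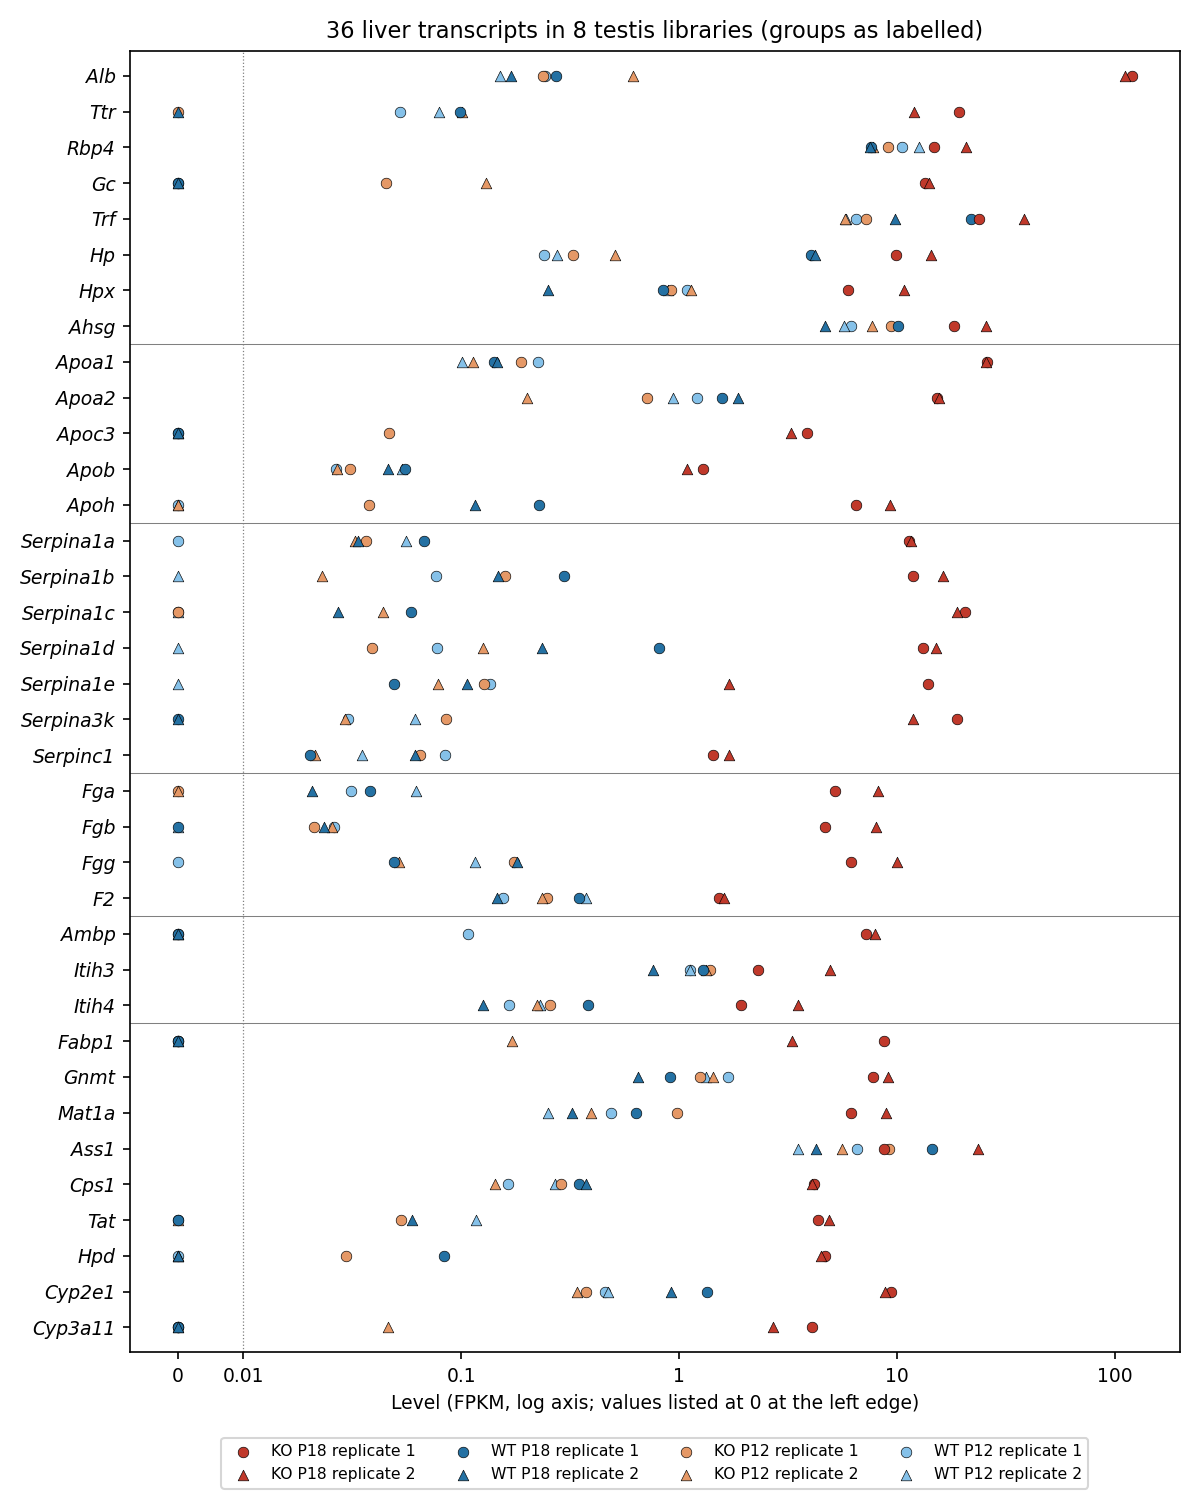
Level of each of the 36 members (rows, grouped by role) in each of the 8 libraries, in FPKM on a log axis, with groups as labelled and values listed at 0 at the left edge. The KO-labelled P18 libraries (red) lie to the right of all others in 35 rows, and Ass1 is the exception, with 8.68 FPKM in KO-labelled P18 replicate 1 and 14.5 FPKM in WT-labelled P18 replicate 1.

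Among carrier and binding proteins, Alb, which encodes serum albumin (ENSMUSG00000029368, chr5:90460897-90476602, plus strand, GRCm38), had the highest level of all members. It was at 119 and 111 FPKM in the KO-labelled P18 libraries, against 0.271 and 0.169 FPKM in the WT-labelled P18 libraries, 0.236 and 0.612 FPKM in KO P12 and 0.241 and 0.150 FPKM in WT P12. Both KO-labelled P18 values lay above the other 6 libraries. Their pooled counts, scaled to the library totals, were 406 times those of the other 6 libraries (95% counting interval 359 to 460). Gc, the vitamin D binding protein, was at 13.4 and 14.0 FPKM in KO-labelled P18, against 0 to 0.129 FPKM in the other 6, where 4 libraries listed it at 0. Ttr, which carries thyroid hormone and the retinol-binding protein, was at 19.1 and 11.9 FPKM in KO-labelled P18, against 0 to 0.101 FPKM in the other 6. Hpx, hemopexin, which binds free heme, was at 5.97 and 10.7 FPKM in KO-labelled P18, against 0.2498 to 1.14 FPKM in the other 6, so the other libraries were low but not at 0. Intervals here and below cover counting error only.

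All 5 apolipoprotein members were above the other libraries. Apoa1, the main protein of high-density lipoprotein, was at 25.8 and 25.5 FPKM in the KO-labelled P18 libraries, against 0.142 and 0.146 FPKM in the WT-labelled P18 libraries, 0.188 and 0.113 FPKM in KO P12 and 0.224 and 0.101 FPKM in WT P12. The KO-labelled P18 values were nearly equal and lay far above the rest. Apob, the structural protein of very-low-density lipoprotein, was the lowest of all members by mean level, at 1.29 and 1.08 FPKM in KO-labelled P18, against 0.0265 to 0.0554 FPKM in the other 6. Apoc3, an inhibitor of lipoprotein lipase, was at 3.84 and 3.27 FPKM in KO-labelled P18 and was listed at 0 in 5 of the other 6. Apoh, which binds phospholipid, was at 6.45 and 9.22 FPKM in KO-labelled P18, against 0.228 and 0.115 FPKM in the WT-labelled P18 libraries and 0 to 0.0377 FPKM at P12.

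The serpin group holds the 5 copies of the alpha-1-antitrypsin gene, which encode inhibitors of serine proteases of neutrophils and others. Serpina1c was the highest by mean, at 20.4 and 18.9 FPKM in the KO-labelled P18 libraries, against 0.0586 and 0.0272 FPKM in the WT-labelled P18 libraries, 0 and 0.0437 FPKM in KO P12 and 0 and 0 FPKM in WT P12. Serpina1a was at 11.3 and 11.6 FPKM in KO-labelled P18, against 0.0673 and 0.0337 FPKM in the WT-labelled P18 libraries, 0.0366 and 0.0325 FPKM in KO P12 and 0 and 0.0557 FPKM in WT P12. Serpina1b was at 11.8 and 16.2 FPKM in KO-labelled P18, against 0.295 and 0.147 FPKM in the WT-labelled P18 libraries, 0.158 and 0.0229 FPKM in KO P12 and 0.0763 and 0 FPKM in WT P12. Serpina1c and Serpina1a were at similar levels in both KO-labelled P18 libraries, and Serpina1b was higher in replicate 2. Serpina1d was at 13.1 and 15.1 FPKM in KO-labelled P18, against 0.805 and 0.233 FPKM in the WT-labelled P18 libraries, 0.0387 and 0.125 FPKM in KO P12 and 0.0774 and 0 FPKM in WT P12. Serpina1e was at 13.9 and 1.69 FPKM in KO-labelled P18, against 0.0491 and 0.107 FPKM in the WT-labelled P18 libraries, 0.127 and 0.0778 FPKM in KO P12 and 0.135 and 0 FPKM in WT P12. Serpina1e was thus high in replicate 1 and low in replicate 2, both still above the other 6. Serpina3k was at 18.7 and 11.8 FPKM in KO-labelled P18, against 0 to 0.0853 FPKM in the other 6, and Serpinc1, antithrombin, was at 1.43 and 1.68 FPKM, against 0.0203 to 0.0842 FPKM in the other 6.

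The 5 copies lie together on chromosome 12, and their coding sequences, 1239 bases each, were 96.3% to 98.5% identical, so the authors' counting could split reads between them and each copy's level is uncertain. Of the windows of 150 bases in the annotated transcripts, 40.7% of Serpina1a, 16.4% of Serpina1b, 50.5% of Serpina1c, 20.2% of Serpina1d and 7.57% of Serpina1e were shared with another copy. Serpina1e therefore had the largest part that a read of that length tells apart, with 24 coding bases that none of the other 4 copies has. Bases 1101 to 1160 of the coding sequence, in GENCODE release M21 (GRCm38), hold 8 of these and code for the part of the protein that holds the reactive loop. They are printed 5′ to 3′ on the minus strand, from chr12:103853757-103853816 for Serpina1a, chr12:103728324-103728383 for Serpina1b, chr12:103895094-103895153 for Serpina1c, chr12:103763762-103763821 for Serpina1d and chr12:103947100-103947159 for Serpina1e, with bases that differ from Serpina1a in capitals.
Serpina1a: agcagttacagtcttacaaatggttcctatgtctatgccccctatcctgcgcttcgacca
Serpina1b: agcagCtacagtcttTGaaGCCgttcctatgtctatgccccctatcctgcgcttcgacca
Serpina1c: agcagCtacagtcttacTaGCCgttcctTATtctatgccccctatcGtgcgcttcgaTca
Serpina1d: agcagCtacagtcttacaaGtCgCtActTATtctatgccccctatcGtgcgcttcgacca
Serpina1e: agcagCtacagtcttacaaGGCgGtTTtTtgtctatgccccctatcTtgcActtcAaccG

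Clotting proteins were above the other libraries in all 4 members, and the chains of fibrinogen, the protein of the clot, had similar levels. Fga was at 5.15 and 8.17 FPKM in the KO-labelled P18 libraries, against 0.0380 and 0.0205 FPKM in the WT-labelled P18 libraries, 0 and 0 FPKM in KO P12 and 0.0311 and 0.0620 FPKM in WT P12. Fgb was at 4.66 and 7.98 FPKM in KO-labelled P18, against 0 and 0.0234 FPKM in the WT-labelled P18 libraries, 0.0210 and 0.0254 FPKM in KO P12 and 0.0260 and 0 FPKM in WT P12. Fgg was at 6.14 and 9.98 FPKM in KO-labelled P18, against 0.0493 and 0.180 FPKM in the WT-labelled P18 libraries, 0.174 and 0.0516 FPKM in KO P12 and 0 and 0.116 FPKM in WT P12. All 3 chains were higher in KO-labelled P18 replicate 2 than in replicate 1. F2, prothrombin, was at 1.52 and 1.61 FPKM in KO-labelled P18, against 0.146 to 0.372 FPKM in the other 6.

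In the inter-alpha-trypsin inhibitor family, Ambp, the precursor of alpha-1-microglobulin and bikunin, was at 7.19 and 7.90 FPKM in the KO-labelled P18 libraries, against 0 and 0 FPKM in the WT-labelled P18 libraries, 0 and 0 FPKM in KO P12 and 0.107 and 0 FPKM in WT P12. Itih4 was at 1.92 and 3.51 FPKM in KO-labelled P18, against 0.126 to 0.380 FPKM in the other 6. For both genes the KO-labelled P18 values lay above those of the other 6 libraries.

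Among intracellular proteins, members of the urea cycle, methionine and tyrosine breakdown, fatty acid binding and cytochrome P450 metabolism showed. Cps1, carbamoyl phosphate synthetase, which starts the urea cycle, was at 4.17 and 4.07 FPKM in the KO-labelled P18 libraries, against 0.347 and 0.374 FPKM in the WT-labelled P18 libraries, 0.286 and 0.142 FPKM in KO P12 and 0.163 and 0.269 FPKM in WT P12. Cyp2e1, which oxidises ethanol and small solvents, was at 9.39 and 8.75 FPKM in KO-labelled P18, against 1.33 and 0.916 FPKM in the WT-labelled P18 libraries, 0.372 and 0.339 FPKM in KO P12 and 0.458 and 0.469 FPKM in WT P12. For both genes the KO-labelled P18 values lay close together and apart from the rest. Tat, which starts tyrosine breakdown, was at 4.33 and 4.88 FPKM in KO-labelled P18, against at most 0.117 FPKM in the other 6. Hpd, the next enzyme of that pathway, was at 4.66 and 4.46 FPKM in KO-labelled P18, against at most 0.0832 FPKM in the other 6. Mat1a, which makes S-adenosylmethionine in liver, was at 6.14 and 8.91 FPKM in KO-labelled P18, against 0.251 to 0.979 FPKM in the other 6. Fabp1, the liver fatty acid binding protein, was at 8.67 and 3.28 FPKM in KO-labelled P18, and Cyp3a11, a drug-metabolising cytochrome P450, at 4.06 and 2.69 FPKM. Each of the last 2 genes was listed at 0 in 5 of the other 6 libraries.

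How constant the ratios were between the KO-labelled P18 libraries was asked next. The ratio of counts scaled to the library total (CPM) in replicate 1 over replicate 2 was computed for all 36 members, each of which had at least 20 counts in both. Its median was 0.920, or −0.12 on the log2 scale. Scaling by TMM (trimmed mean of M-values, which corrects for library makeup) moved that median to 0.18 on the log2 scale, so which library was the higher depends on the scaling, while ratios between members do not. Members with a median of at least 1 FPKM over the other 6 libraries were set apart as having a testis level. By this rule Hp, Hpx and Cyp2e1 had none, though their highest values in those libraries were 4.20, 1.14 and 1.33 FPKM. The members without a testis level are thus not all near 0 in the other libraries. In the 29 without a testis level, the median ratio was 0.984, with quartiles of −0.48 and 0.15 on the log2 scale, against −0.90 and 0.36 for the 15688 tested genes with enough counts. Of the 29, 19 (65.5%) lay within 1.5 times of 1, against 39.2% of those tested genes, whose median was −0.37 on the log2 scale. The members were picked for high levels in both libraries, which keeps out genes high in only 1. Nothing is therefore read from their narrower spread. The summed counts of the 29 were 0.0842% and 0.0825% of the library, with a ratio of 1.02 (1.01 to 1.03).

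The spread of the ratios was wider than counting error: of the 29 exact 95% intervals, 10 lay above 1 and 11 below it. The ratio was 1.10 for Alb (1.08 to 1.12), 1.04 for Apoa1 (0.981 to 1.10), 0.984 for Gc (0.923 to 1.05) and 1.05 for Cps1 (0.981 to 1.12). Those members were near equal in both libraries. It was 2.70 for Fabp1 (2.21 to 3.31), 1.64 for Ttr, 1.63 for Serpina3k and 1.55 for Cyp3a11, all higher in replicate 1. It was 8.33 for Serpina1e (7.22 to 9.66), the farthest from 1 of all 36 members, against 0.749 to 1.11 for the other 4 copies of that gene.

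**Figure D2:**
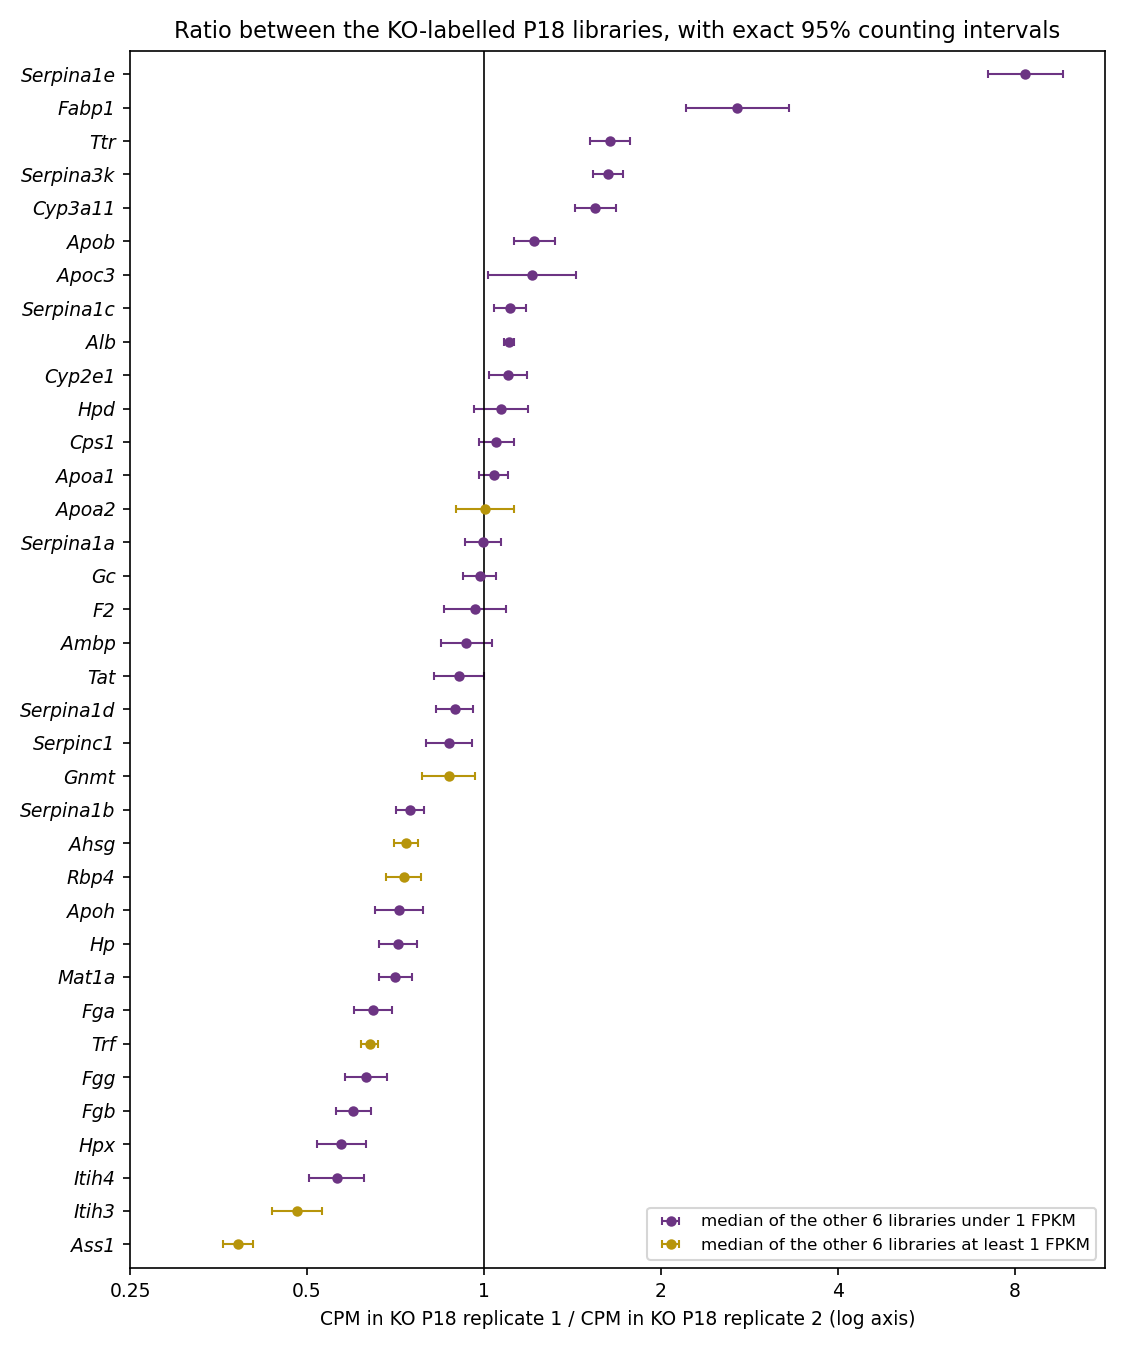
Ratio of CPM in KO-labelled P18 replicate 1 over replicate 2 for each member, on a log axis, with exact 95% binomial intervals for counting error, in purple for the 29 members without a testis level and in yellow for the 7 with one. Most purple points lie near 1, with Serpina1e at 8.33 at the top and Itih4 at 0.562 the lowest of them.

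At the other end, beside Ass1, Trf, Mat1a and Apoh, lay proteins of the acute-phase response, the rise of certain plasma proteins in inflammation. This grouping was made after the ratios were seen and has no test. Of all 36 members, 22 had a ratio below 1, and the 15688 tested genes had a median of −0.37 on the log2 scale, with quartiles of −0.90 and 0.36. All 7 members in the acute-phase grouping (Hp, Hpx, Fga, Fgb, Fgg, Itih3 and Itih4) had a ratio below 1, between 0.481 and 0.714. Their pooled counts gave 0.609 (0.590 to 0.628). Of these, Itih3 had a testis level and Hp was at 4.03 and 4.20 FPKM in WT-labelled P18. A ratio below 1 was not particular to the grouping: it was 0.639 for Trf, 0.730 for Rbp4 and 0.736 for Ahsg. The Serpina1 copies, also outside the grouping, ran from 0.749 to 8.33. Some other acute-phase genes were likewise higher in replicate 2. Orm1, an acid glycoprotein, was at 3.40 and 9.62 FPKM in KO-labelled P18 and listed at 0 in the other 6. Hamp, the iron hormone hepcidin, was at 3.23 and 7.20 FPKM, against 0 to 0.202 FPKM in the other 6. C3, of complement, was at 7.41 and 13.05 FPKM in KO-labelled P18, against 0.659 to 3.03 FPKM in the other 6. Saa1, which is strongly induced in a full response, was at 0.194 and 0.0765 FPKM in KO-labelled P18, against 0 to 0.110 FPKM in the other 6, so it was near the other libraries. Saa4 went the other way, at 0.665 and 0.359 FPKM in KO-labelled P18, against 0 to 0.0287 FPKM in the other 6.

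A wider gap between the KO-labelled P18 libraries was outside the 36 members, in the major urinary proteins, carriers of pheromones made mainly by the liver of adult males. Mup7 was at 38.2 and 0.781 FPKM in KO-labelled P18, Mup3 at 21.6 and 1.41 FPKM, and Mup20 at 18.02 and 0.429 FPKM. In the other 6 libraries Mup7 was listed at 0, and the other two at no more than 0.0969 FPKM. Over the 20 Mup genes in the table, replicate 1 had 8302 counts and replicate 2 had 460, against 23 in the other 6 libraries together. Many Mup genes are near-identical copies, and 72.9% of the windows of 150 bases in Mup7 were shared with another copy. None of the windows of Mup3 and Mup20 were shared, and their pooled ratio was 21.3 (18.1 to 25.3). Cyp2d9, another gene with male bias in adult liver, was at 1.89 and 1.71 FPKM in KO-labelled P18, against 0 to 0.0225 FPKM in the other 6, so it was near equal in both. Cyp4a12a, also of that kind, was at 0.445 and 0.0713 FPKM in KO-labelled P18 and listed at 0 in the other 6. Both KO-labelled P18 values were above the other 6 for 7 of 10 genes with male bias, Mup genes among them. They were above for 3 of 4 genes with female bias in the table, against 1.52% of the 16702 genes tested. Only 3 of the 10 and 1 of the 4 were among the genes tested, so that share does not cover them. Nothing is read from these counts.

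**Figure D3:**
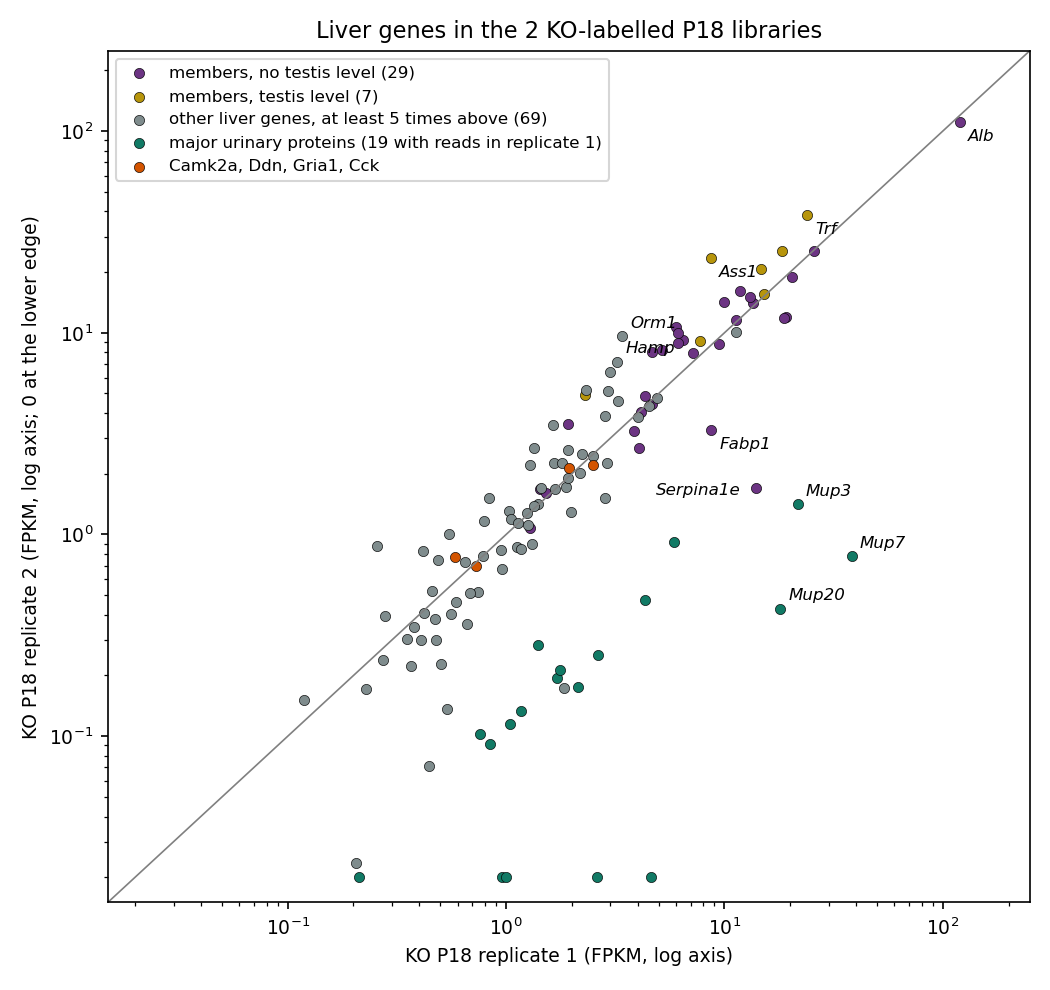
Level in KO-labelled P18 replicate 1 (x axis) against replicate 2 (y axis), in FPKM on log axes, for members, 69 other liver genes at least 5 times above the other 6 libraries, 19 Mup genes and 4 forebrain genes, with the line of equal levels. Most members and other liver genes lie near the line, with exceptions such as Ces3a (1.83 and 0.173 FPKM) below it; Orm1 (3.40 and 9.62 FPKM) lies above it, and Mup genes and Serpina1e (13.9 and 1.69 FPKM) below it.

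Other hepatocyte genes were counted in lists. These were chosen with earlier results of these data known, so nothing is read from their counts here and below. Of the 16702 genes tested, 1.52% had both KO-labelled P18 values above the other 6 libraries. Only 28 of 56 other plasma proteins and 36 of 62 other metabolic enzymes were among the genes tested, so that share does not cover the whole lists. Both KO-labelled P18 values were above the other 6 libraries for 42 of 56 other plasma proteins and for 50 of 62 other metabolic enzymes. An example is Azgp1, a zinc-binding plasma glycoprotein, at 4.93 and 4.76 FPKM in KO-labelled P18 and listed at 0 in the other 6. They were above for 7 of 10 transporters, among them Slc10a1, the bile acid importer, at 1.92 and 1.902 FPKM in KO-labelled P18, against 0.0280 to 0.101 FPKM in the other 6. Of 13 hepatocyte transcription factors, 4 were above, and Hnf4a was at 0.483 and 0.654 FPKM in KO-labelled P18, against 0 to 0.0970 FPKM in the other 6. Fbp1, of glucose synthesis, and Aqp9, a glycerol channel, did not follow the labels. Fbp1 was at 165 and 4.11 FPKM in the KO-labelled P18 libraries, against 1.63 and 101 FPKM in the WT-labelled ones, and was thus high in the libraries with the higher germ cell sums.

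Hepatocytes near the portal vein and near the central vein use different enzymes. Of genes known for the portal side, 10 of 12 were above the other 6 libraries, with Ass1 and Asl, which the testis also expressed, as exceptions. Of genes known for the central side 6 of 11 were above, among them Cyp2e1 and Cyp2c29. Cyp2c29, a drug-metabolising cytochrome P450, was at 3.24 and 4.59 FPKM in KO-labelled P18 and listed at 0 in the other 6. Glul and Oat, of glutamine and ornithine metabolism, were at 49.0 to 116 FPKM and 50.1 to 142 FPKM over all 8 libraries, and neither was above the rest in KO-labelled P18. None of 5 fetal liver genes was above. The other 6 libraries already held H19, Igf2, Dlk1 and Gpc3 at 2.1 to 32.7 FPKM, so a small added amount of them might not show. Afp, alpha-fetoprotein, the albumin relative of fetal liver, was at 0.290 and 1.23 FPKM in the KO-labelled P18 libraries, against 0.545 to 2.12 FPKM in the other 6.

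For most markers of the other cell types of liver, the KO-labelled P18 values were not both above the other libraries. Both KO-labelled P18 values were above for 1 of 5 Kupffer cell markers, 0 of 6 sinusoidal endothelium markers, 0 of 5 stellate cell markers and 1 of 5 cholangiocyte markers. The Kupffer cell marker was Clec4f, a lectin of liver macrophages, at 0.178 and 0.0787 FPKM in KO-labelled P18 and listed at 0 in the other 6. None of the kidney, small intestine, pancreas, adipose tissue, red blood cell or epididymis markers was above. The other 6 libraries already held some of the markers, such as Spp1 of cholangiocytes at 23.8 to 55.3 FPKM. Oit3 of sinusoidal endothelium was there at 1.34 to 8.07 FPKM. A small added amount of such genes might not show. Others were low there, such as Vsig4 of Kupffer cells at 0 to 0.216 FPKM.

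Genes outside every list were picked by their size of difference in the same libraries, and are given as values. Of 72 genes at no less than 1 FPKM in both KO-labelled P18 libraries and at least 5 times above the other 6, 28 were members, 35 were in other liver lists and 9 were in none. Cyp2c70, an enzyme of bile acid synthesis in mouse liver, was at 1.34 and 1.49 FPKM in KO-labelled P18, against 0 to 0.121 FPKM in the other 6. Also among them were Mettl7b, BC024386, Gm8893, Pigr, H2-Ea and a pair that is better known from brain. H2-Ea, a class II antigen chain that several laboratory strains do not express, was at 1.82 and 1.40 FPKM in KO-labelled P18 and listed at 0 in the other 6. Camk2a, a kinase of forebrain synapses, was at 2.50 and 2.21 FPKM in KO-labelled P18, against 0.187 to 0.322 FPKM in the other 6, and Ddn, dendrin, at 1.93 and 2.13 FPKM, against 0.0676 to 0.264 FPKM in the other 6. Forebrain neuron genes were listed after these were seen. Of the 8 other than Camk2a and Ddn, 7 were above the other 6 libraries, against 1.52% of the genes tested. Their summed levels were 7.84 and 8.63 FPKM in KO-labelled P18, against 3.05 to 4.12 FPKM in the other 6. Only 5 of the 10 forebrain genes were among the genes tested. Of other lists added later, 2 of 6 glial, 0 of 4 skeletal muscle and 1 of 3 lung epithelium genes were above. Nothing is read from these counts.

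Of the 36 members, 7 had a testis level, and for these the other 6 libraries carry information of their own. Trf, transferrin (chr9:103204001-103230444, minus strand), was at 23.8 and 38.1 FPKM in the KO-labelled P18 libraries, against 21.9 and 9.79 FPKM in the WT-labelled P18 libraries, 7.21 and 5.76 FPKM in KO P12 and 6.47 and 5.84 FPKM in WT P12. The lower KO-labelled P18 value was 1.09 times the highest of the others, so the groups nearly touched. Within each P18 label, Trf was higher in the library with the higher Sertoli cell sum. Whether Sertoli cell content had a part in its level was not tested.

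Ahsg, fetuin-A, an inhibitor of mineral deposition (chr16:22891277-22899449, plus strand), was at 18.3 and 25.5 FPKM in the KO-labelled P18 libraries, against 10.1 and 4.68 FPKM in the WT-labelled P18 libraries, 9.41 and 7.64 FPKM in KO P12 and 6.16 and 5.67 FPKM in WT P12. The lower KO-labelled P18 value was 1.80 times the highest of the others. Rbp4, the plasma carrier of retinol (chr19:38116629-38125281, minus strand), was at 14.7 and 20.7 FPKM in KO-labelled P18, against 7.54 and 7.47 FPKM in the WT-labelled P18 libraries, 9.08 and 7.78 FPKM in KO P12 and 10.6 and 12.5 FPKM in WT P12. The other 6 libraries were never under 7.47 FPKM for Rbp4, and pooled CPM was 1.96 times theirs (1.87 to 2.04).

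Ass1, argininosuccinate synthase of the urea and citrulline cycles (chr2:31470207-31520672, plus strand), overlapped. It was at 8.68 and 23.4 FPKM in the KO-labelled P18 libraries, against 14.5 and 4.25 FPKM in the WT-labelled P18 libraries, 9.15 and 5.58 FPKM in KO P12 and 6.56 and 3.49 FPKM in WT P12. Its highest values were in the P18 libraries with the higher Sertoli cell sums, one of each label. Cps1, the step before it in the urea cycle, was at least 10.9 times above the highest of the other 6 in both KO-labelled P18 libraries.

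The remaining members with a testis level were low in it. Apoa2, of high-density lipoprotein, was at 15.2 and 15.5 FPKM in the KO-labelled P18 libraries, against 1.56 and 1.86 FPKM in the WT-labelled P18 libraries, 0.713 and 0.199 FPKM in KO P12 and 1.21 and 0.932 FPKM in WT P12. Gnmt, which uses S-adenosylmethionine to methylate glycine, was at 7.72 and 9.09 FPKM in KO-labelled P18, against 0.905 and 0.646 FPKM in the WT-labelled P18 libraries, 1.25 and 1.43 FPKM in KO P12 and 1.67 and 1.32 FPKM in WT P12. Itih3 was at 2.31 and 4.92 FPKM in KO-labelled P18, against 1.29 and 0.756 FPKM in the WT-labelled P18 libraries, 1.39 and 1.33 FPKM in KO P12 and 1.11 and 1.12 FPKM in WT P12. In each of these 3 genes both KO-labelled P18 values lay above the other 6 libraries, the contrast by which members were picked.

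**Figure D4:**
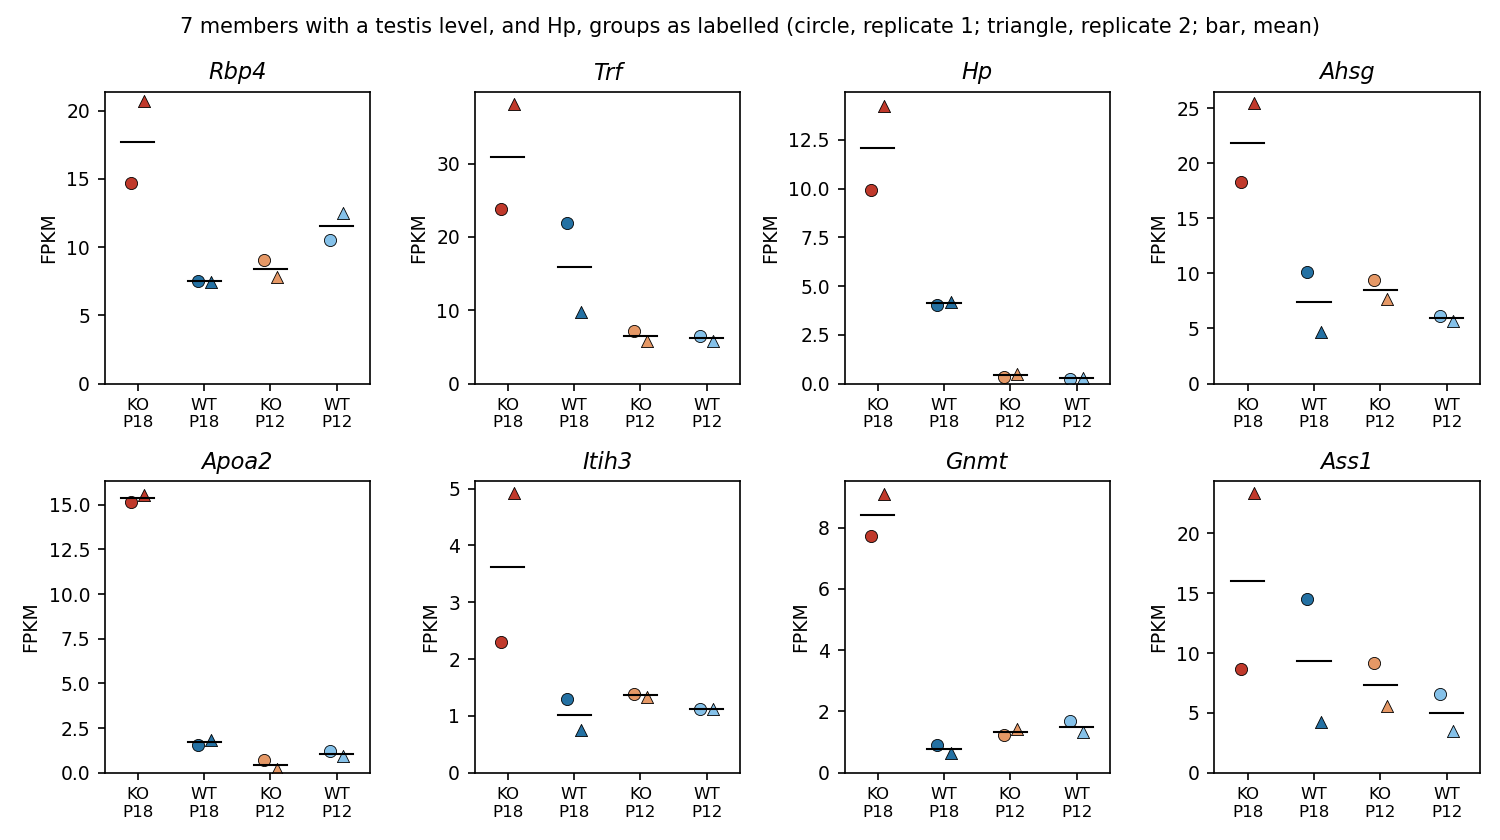
Level in FPKM (linear axes from 0) of the 7 members with a testis level and of Hp in the 4 groups as labelled, with a circle for replicate 1, a triangle for replicate 2 and a bar at the mean. KO-labelled P18 lies above the rest in every panel except Ass1, whose WT-labelled P18 replicate 1 (14.5 FPKM) lies above KO-labelled P18 replicate 1 (8.68 FPKM), and Hp is near 4 FPKM in the WT-labelled P18 libraries (4.03 and 4.20) and lower at P12.

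A pair of contrasts within the 6 other libraries were not used to choose the members and were tested in edgeR's quasi-likelihood test with Benjamini-Hochberg adjustment over all 16702 genes. Only 9 members (Rbp4, Trf, Hp, Hpx, Ahsg, Apoa2, Itih3, Gnmt and Ass1) passed the filter without the KO-labelled P18 values, and the counts of members are over these 9. In KO against WT testes at P12, 0 of the 9 passed an adjusted p of 0.05, as did 0% of all genes. At an unadjusted p under 0.05 there were 1 of the 9 (Hp) and 131 genes (0.784%). DESeq2 called 0 of the 9 and 10 genes (0.0599%), and limma 0 of the 9 and 0 genes. The 9 log2 differences ran from −1.14 (Apoa2) to 0.73 (Hp), 6 positive and 3 negative. Hp was at 0.327 and 0.509 FPKM in KO P12, against 0.240 and 0.275 FPKM in WT P12, which did not overlap, with a log2 difference of 0.73 ± 0.29 (SE, edgeR adjusted p = 1).

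In WT-labelled testes at P18 against P12, which rests in part on the library labelled WT in which Alkbh5 was at 0.00985 FPKM, edgeR called 0 of the 9 and 0% of all genes. At an unadjusted p under 0.05 there were 4 of the 9 (Hp, Trf, Gnmt and Rbp4) and 1082 genes (6.48%). DESeq2 called 2 of the 9, Hp and Trf, both higher at P18, against 1.72% of all genes in that direction, and limma called 0 of the 9 and 0 genes. Hp, haptoglobin, which binds free haemoglobin (chr8:109575128-109579172, minus strand), was at 4.03 and 4.20 FPKM in WT-labelled P18, against 0.240 and 0.275 FPKM in WT P12. The groups were far apart, with a log2 difference of 4.10 ± 0.32 (SE, edgeR adjusted p = 0.243). Its adjusted p was 1.11e-26 in DESeq2 and ran from that to 0.968 over the alternatives. In KO-labelled P18 it was at 9.91 and 14.2 FPKM.

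Haptoglobin is also made in adipose tissue, and markers of that tissue moved with it between the ages. The summed level of 6 adipose markers was 15.7 and 12.5 FPKM in WT-labelled P18, against 3.74 and 0.877 FPKM in WT P12. In KO-labelled P18 it was 1.20 and 7.62 FPKM. Adipoq, adiponectin, was at 1.91 and 1.75 FPKM in WT-labelled P18, against 0.230 and 0 FPKM in WT P12. The part of adipose tissue in the Hp level was not tested.

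For Trf the log2 difference of WT-labelled P18 against WT P12 was 1.45 ± 0.36 (SE, edgeR adjusted p = 0.614, DESeq2 0.0118, alternatives from 0.00900 to 0.968), and both P18 values were above both at P12. Rbp4 differed by −0.50 ± 0.19, with both P18 values below both at P12, and Gnmt by −0.84 ± 0.28, and neither passed in edgeR or DESeq2. Ahsg (0.41 ± 0.34) and Ass1 (0.97 ± 0.68) overlapped between the ages. Without the 2 libraries whose Alkbh5 level goes against the label they came to −0.16 and −0.059.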

How the data were processed

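Whole-testis RNA-seq (poly(A) selected, second strand marked with dUTP, 2 reads of 150 bp, per the labels) was deposited as 1 table with a count and an FPKM value per gene and library. Per the submitters' processing notes, cutadapt 1.9, HISAT2 2.2.1, StringTie 2.1.6 and GRCm38 were used. The deposited counts are whole numbers with a different total in each library, and the authors' FPKM values are scaled by length and depth. The counting tool and its use of strand are not given in the sources used here.

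Levels are FPKM, and ratios use counts scaled to the library total (CPM), with exact binomial 95% intervals. Genes with at least 1 FPKM in at least 2 libraries were fitted in R 4.3.3 with edgeR 4.0.16 (TMM, quasi-likelihood, 4 group means), and in DESeq2 1.42.0 and limma 3.58.1 (pseudocounts 1 and 0.1). Python 3.11.15 made the other values. Members and lists were chosen with earlier results of these data known. Values in every library are given for the highest member of each role, members with a testis level, fibrinogen chains, Serpina1 copies, Cyp2e1, Ass1 and Cps1. Other lists give up to 5 of their highest genes, and Azgp1, Hnf4a, Clec4f and the Mup and acute-phase genes were named after their values were seen. Replicate numbers share only a number: deviations of same-numbered libraries correlated at −0.90 between KO and WT P18 and −0.0043 between KO and WT P12, and across ages at −0.11 (KO P18 with KO P12), −0.28 (KO P18 with WT P12), 0.13 (WT P18 with KO P12) and 0.29 (WT P18 with WT P12).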

Additional observations from a re-analysis of the deposited data

How the results depend on the processing

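The count of 35 members above the other 6 libraries stayed at 35 with TMM-scaled CPM and without any 1 of those 6, and was 31 and 28 at margins of 2 and 5 times. The median log2 ratio of −0.12 was 0.18 with TMM scaling, −0.15 from FPKM, −0.10 with the WT-labelled P18 mean subtracted (35 members) and −0.024 without members with a testis level; it was the same with at least 100 counts. In the tests, where edgeR called 0 genes in each contrast, RLE scaling, no filter, a filter of 10 counts, a replicate block and every fit without 1 library also called 0 (range 0 to 0). The P18 contrast of KO against WT chose the members, so their calls in it are not given. Over all genes it gave 75 in DESeq2, 27 in limma with a pseudocount of 1, 2 with 0.1, and 6357 without the 2 libraries whose Alkbh5 level goes against the label. The P18 libraries paired across replicate numbers, chosen after seeing the data, gave 52. At P12, gene counts were 10 in DESeq2, 1 without those 2 libraries and 9 in the 4 P12 libraries alone, with 0 members in each. For WT P18 against P12, DESeq2 gave 413 genes, and 5 of all 36 members, of which 2 pass the filter without the KO-labelled P18 values; the fit without those 2 libraries gave 7507 genes and 5 members. Nothing is read from either count of 5. The fit without those 2 libraries leaves 1 library in each P18 group, assumed to vary as the P12 libraries do. There, as without WT-labelled P18 replicate 1 alone, the log2 differences of Ahsg and Ass1 turned to −0.16 and −0.059; without any 1 library they ran from −0.16 to 0.82 and from −0.059 to 1.57. The cause was not tested. Counts of a few reads in the other 6 libraries limit the folds.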
